A study of Mus musculus with 2 samples.

Results

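The 10 genes described here encode surface receptors of natural killer (NK) cells: Ncr1, Klrb1c, Klrk1, Klrd1, Klrc1, Klre1, Klra4, Klra7, Klra8 and Klra9. They were taken by symbol, mapped from the Ensembl identifiers of the deposited tables, and make up 10 of the 43346 genes listed there. The tissue was whole spleen of adult C57BL/6J mice, 8 weeks old, from littermates of mixed sex, with no treatment and no engineered allele given in the labels. Polyadenylated RNA longer than 200 nucleotides was sequenced as strand-specific read pairs of 76 nucleotides. The labels describe 1 group of 2 biological replicates, called library 2 and library 1, so no condition was compared and each ratio is library 2 over library 1, with no replicate check.

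NK cells are lymphocytes that kill infected, transformed or stressed cells without prior sensitisation. They weigh signals from activating receptors, which pair with adaptor proteins carrying tyrosine-based activation motifs, against signals from inhibitory receptors that recognise MHC class I molecules. In the mouse many of these receptors are C-type lectin-like proteins whose genes lie side by side in the NK gene complex on chromosome 6. C57BL/6 mice carry the NK1.1 antigen, which is used with NKp46 to mark NK cells in spleen. The spleen is one of the tissues from which mouse NK cells are usually isolated.

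Each library held enough reads to place all 10 genes above 0. Gene counts summed to 51393345 in library 2 and 49686344 in library 1, and the receptor genes together took 1529 and 832 of these. The spleen genes Tlx1 and Nkx2-5 were present, at 33.6 and 17.3 TPM in library 2 and 46.0 and 29.6 TPM in library 1. The libraries differed in make-up. Globin and Alas2 transcripts of red cells held 30.4% of the TPM total in library 2, against 19.4% in library 1, and 6 genes of the exocrine pancreas held 5.92% and 7.60%. TPM, a length-corrected abundance brought to a fixed total per library, is used here for levels and for comparing genes. Counts scaled by TMM, a trimmed mean of log ratios, are used for ratios between libraries.

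All 10 receptor genes were low-abundance transcripts of whole spleen. Their levels ran from 0.18 TPM to 7.67 TPM, and their sum was 22.1 TPM in library 2 and 13.1 TPM in library 1, a mean of 17.6 ± 6.36 TPM (SD, n = 2). Of the 10 genes, 5 reached 1 TPM in both libraries: Ncr1, Klrb1c, Klrd1, Klrc1 and Klre1. Klrk1 fell just short of it in library 1, and the 4 Ly49 genes stayed under 0.5 TPM in both. In a bulk tissue, fewer NK cells and less receptor RNA per cell cannot be told apart.

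The leading gene differed between the libraries. In library 2 the order by TPM was Klrb1c, Ncr1, Klrc1, Klrd1, Klre1, Klrk1, Klra7, Klra8, Klra4 and Klra9. In library 1 it was Ncr1, Klrb1c, Klrc1, Klrd1, Klre1, Klrk1 and Klra7, followed by Klra4 and Klra9 at the same level and Klra8. In each library, 6 of the 9 pairs of neighbours had overlapping 95% counting intervals, so their order is not resolved at this depth. The steps that did separate were those after the first, the second and the sixth gene. These intervals cover counting error only, not variation between mice.

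**Figure D1:**
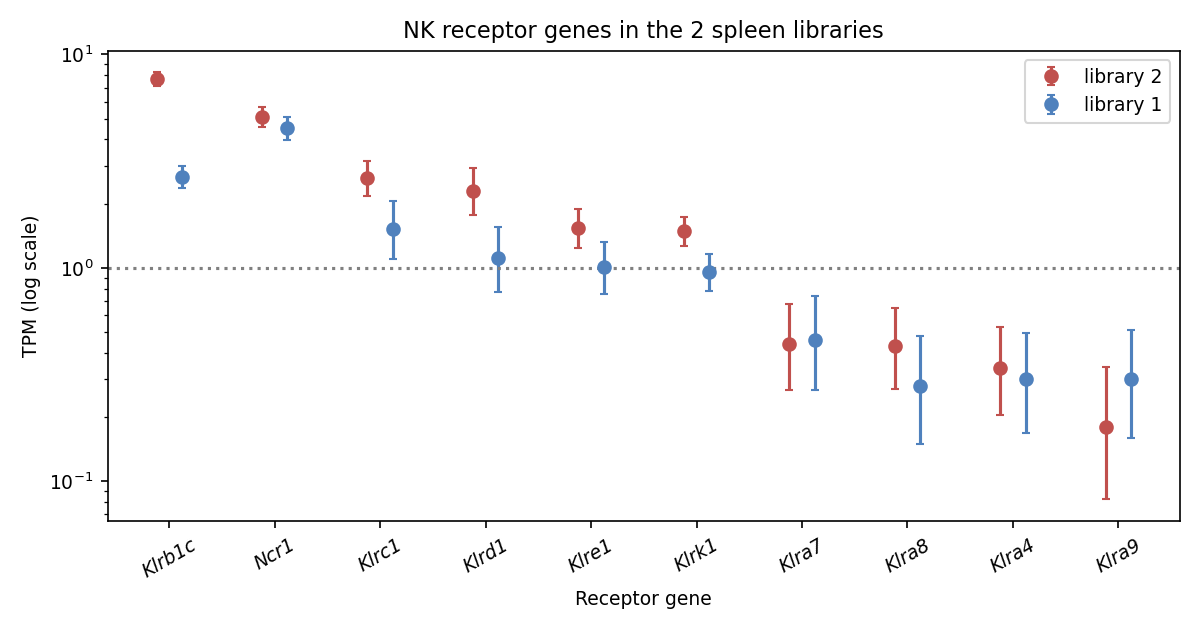
TPM of the 10 receptor genes on a log axis, with library 2 left of library 1 for each gene; points are levels, bars are 95% counting intervals and the dotted line marks 1 TPM. Klrb1c leads in library 2 at 7.67 TPM and Ncr1 in library 1 at 4.50 TPM, while the 4 Klra genes lie below 0.5 TPM in both.

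Of the 10 receptor genes, 6 were higher in library 2 beyond counting error and 0 were lower: Ncr1, Klrb1c, Klrk1, Klrd1, Klrc1 and Klre1. The other 4, all Ly49 genes, did not pass the test. Counts were compared by an exact binomial test, two-sided, with Benjamini-Hochberg adjustment over the 17547 genes with 10 or more counts. It compares these 2 libraries and no condition, and the spread it allows for is counting error alone. Over all genes tested, 50.7% passed in either direction, 24.1% being higher in library 2 and 26.6% lower, so passing the test is common in this pair. The median log2 ratio was 0.67 over the receptor genes and 0.0049 over all genes tested. A ratio above 2-fold together with passing the test was less common: 3.52% of all genes had it, and among the receptor genes Klrb1c and Klrc1 did.

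**Figure D2:**
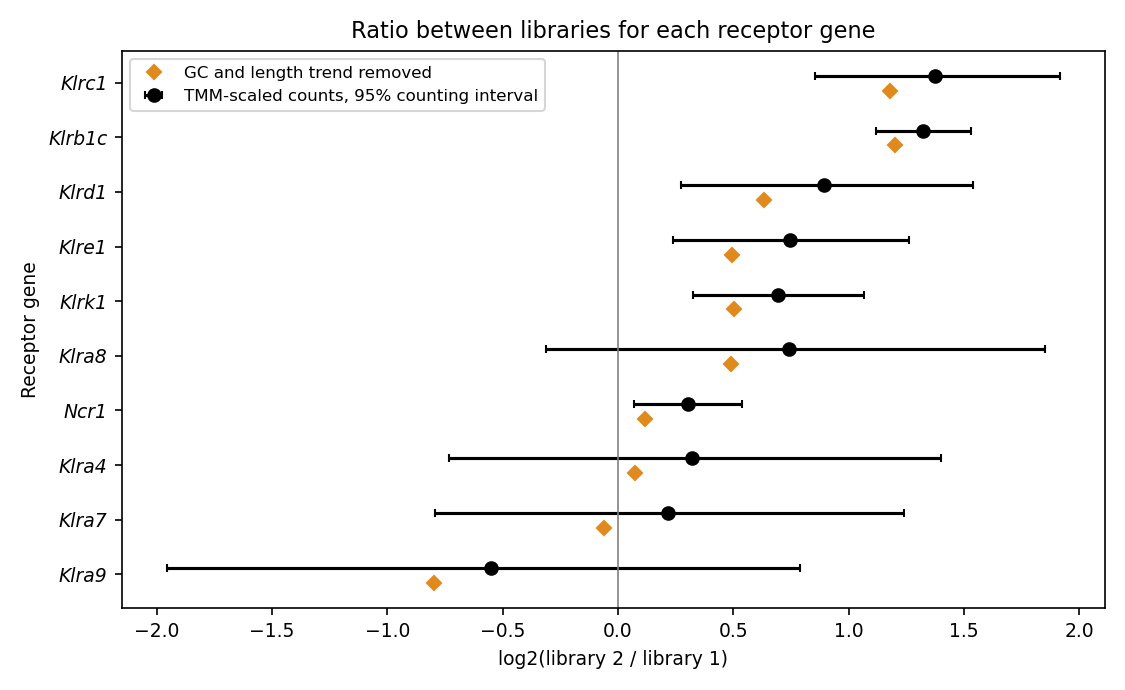
Log2 ratio of library 2 over library 1 for each receptor gene. Black points are TMM-scaled counts with 95% counting intervals, and orange diamonds are the same ratios after the trend with GC content and transcript length was removed; Klrc1 and Klrb1c lie farthest to the right at 2.59-fold and 2.50-fold, and the intervals of the 4 Klra genes cross 0.

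Among the activating receptors that mark NK cells, Ncr1 was the most evenly measured. It encodes NKp46, an immunoglobulin-like receptor that signals through the Fc receptor gamma chain and CD3 zeta. Ncr1 (ENSMUSG00000062524, chr7:4337724-4345164, plus strand, GRCm38, which is mm10) is the one receptor gene of the 10 outside chromosome 6. It had 341 counts and 5.10 TPM in library 2, and 273 counts and 4.50 TPM in library 1, a mean of 4.80 ± 0.424 TPM (SD, n = 2). Its scaled count was 1.23-fold higher in library 2 (95% counting interval 1.05 to 1.45), a small excess that passed the exact binomial test (Benjamini-Hochberg adjusted p = 0.0215).

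Klrb1c showed the widest spread in level. It encodes NK1.1, also called NKR-P1C, an activating lectin-like receptor that pairs with the Fc receptor gamma chain. Klrb1c (ENSMUSG00000030325, chr6:128778485-128789215, minus strand) had 687 counts and 7.67 TPM in library 2, and 271 counts and 2.67 TPM in library 1, a mean of 5.17 ± 3.54 TPM (SD, n = 2). The counts of the 2 libraries were far apart: the ratio was 2.50-fold (interval 2.17 to 2.89; exact binomial test, Benjamini-Hochberg adjusted p = 5.4e-40). Klrb1c stood at 1.50 times the TPM of Ncr1 in library 2 and at 0.593 times in library 1, so the order of these NK markers turned over between the libraries.

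Klrk1 encodes NKG2D, the activating receptor for stress-induced ligands of the RAE-1, H60 and MULT1 families, which signals through the adaptors DAP10 and DAP12 in mouse NK cells. Klrk1 (ENSMUSG00000030149, chr6:129610323-129623864, minus strand) had 164 counts and 1.49 TPM in library 2, and 100 counts and 0.96 TPM in library 1. Its counting intervals in TPM, 1.27 to 1.74 in library 2 and 0.781 to 1.17 in library 1, did not overlap. The scaled count was 1.62-fold higher in library 2 (interval 1.25 to 2.10; exact binomial test, Benjamini-Hochberg adjusted p = 0.00041). NKG2D is also carried by activated CD8 T cells, which bulk spleen RNA does not separate from NK cells.

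The CD94 and NKG2A pair forms an inhibitory receptor for the nonclassical MHC class I molecule Qa-1. Klrd1, which encodes the CD94 chain (ENSMUSG00000030165, chr6:129591782-129598775, plus strand), had 64 counts and 2.29 TPM in library 2 against 34 counts and 1.11 TPM in library 1. The ratio was 1.86-fold (interval 1.21 to 2.91; exact binomial test, Benjamini-Hochberg adjusted p = 0.0080). Klrc1, which encodes NKG2A (ENSMUSG00000030167, chr6:129666015-129678973, minus strand), had 113 estimated counts and 2.63 TPM in library 2 against 43 counts and 1.52 TPM in library 1. Its scaled count was 2.59-fold higher in library 2 (interval 1.81 to 3.78; exact binomial test, Benjamini-Hochberg adjusted p = 1.1e-07). In TPM the same gene differed by 1.73-fold. The transcripts credited to it differed in length between the libraries, and TPM ratios ran lower in general, with a median of 0.903 over all genes at 1 TPM or more in both.

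Both chains of the inhibitory pair were present at similar levels. Klrc1 stood at 1.15 times the TPM of Klrd1 in library 2 and at 1.37 times in library 1, and their counting intervals overlapped in each library. Klre1 (ENSMUSG00000050241, chr6:129577905-129585827, plus strand) encodes a lectin-like chain that pairs with KLRI1 or KLRI2 in mouse NK cells. It had 90 counts and 1.54 TPM in library 2, and 53 counts and 1.01 TPM in library 1. The ratio was 1.68-fold (interval 1.18 to 2.40; exact binomial test, Benjamini-Hochberg adjusted p = 0.0064). Of its partner genes, Klri2 was higher in library 2, with 147 counts against 64 in library 1 (log2 ratio 1.16), and Klri1 had 16 counts in library 2 and 20 in library 1, which did not pass.

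The Ly49 receptors, encoded by the Klra genes, recognise MHC class I molecules or viral mimics of them, and each is carried by a fraction of NK cells. Klra7 (Ly49G2) and Klra9 (Ly49I) are inhibitory, and Klra4 (Ly49D) and Klra8 (Ly49H) are activating, with Ly49H known as the receptor for a protein of mouse cytomegalovirus. The activating and inhibitory forms differ near the start of the protein, where inhibitory forms carry a tyrosine in an inhibition motif. The first 36 coding bases are shown because they hold this difference for the 4 receptors and for Klrc1, whose NKG2A product carries the same kind of motif. Sequences are from GENCODE M21 transcripts on GRCm38, minus strand, 5′ to 3′, with codon 8 in capitals.
Klra7, chr6:130231582-130231617: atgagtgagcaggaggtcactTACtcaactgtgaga
Klra9, chr6:130191266-130191301: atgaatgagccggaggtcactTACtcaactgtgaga
Klra4, chr6:130065267-130065302: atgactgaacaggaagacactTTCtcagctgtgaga
Klra8, chr6:130128125-130128160: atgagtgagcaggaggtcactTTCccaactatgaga
Klrc1, chr6:129678875-129678910: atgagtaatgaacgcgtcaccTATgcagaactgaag

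Codon 8 reads TAC or TAT, both tyrosine codons, in the inhibitory Klra7, Klra9 and Klrc1, and TTC, a phenylalanine codon, in the activating Klra4 and Klra8. Relative to Klra7, Klra4 and Klra8 share the substitution A23T, with positions counted from 1 at the A of the start codon. Over the whole coding sequence, similarity did not follow that divide. Klra8 and Klra9, an activating and an inhibitory receptor, matched at 91.9% of 798 aligned bases, and Klra4 and Klra7 matched at 84.3%. The other mixed pairs, Klra4 with Klra9 and Klra7 with Klra8, each matched at 77.9%. The inhibitory Klra7 and Klra9 matched at 80.5%, and the activating Klra4 and Klra8 at 78.6%.

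The Ly49 genes were the lowest of the receptor genes, and the libraries did not separate for any of them. Klra7 (ENSMUSG00000067599, chr6:130218605-130233322) had 20 counts and 0.44 TPM in library 2, and 17 counts and 0.46 TPM in library 1. Klra8 (ENSMUSG00000089727, chr6:130115226-130129898) had 22 counts and 0.43 TPM in library 2, and 13 counts and 0.28 TPM in library 1. For both genes the counting intervals of the libraries overlapped. Klra4 (ENSMUSG00000079852, chr6:130043731-130067271) had 19 counts and 0.34 TPM in library 2, and 15 counts and 0.30 TPM in library 1. Klra9 (ENSMUSG00000033024, chr6:130178675-130193112) had 9 counts and 0.18 TPM in library 2, and 13 counts and 0.30 TPM in library 1, the one receptor gene with the lower count in library 2. The intervals on their ratios were wide, running from 0.578 to 2.36 for Klra7 and from 0.258 to 1.73 for Klra9. Adjusted p-values from the exact binomial test with Benjamini-Hochberg adjustment were 0.70 for Klra4, 0.82 for Klra7, 0.26 for Klra8 and 0.51 for Klra9. A difference of the size seen for Klrk1, 1.62-fold, lies inside each of the 4 intervals and was not detectable at this depth.

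Pooling the Ly49 genes by role did not separate the libraries either. The activating Klra4 and Klra8 summed to 41 counts and 0.77 TPM in library 2, and to 28 counts and 0.58 TPM in library 1, a ratio of scaled counts of 1.45 (interval 0.873 to 2.43). The inhibitory Klra7 and Klra9 summed to 29 counts and 0.62 TPM in library 2, and to 30 counts and 0.76 TPM in library 1, a ratio of 0.954 (interval 0.553 to 1.65). These sums cover 2 genes of each kind and not the whole Ly49 family. All 4 together made up 4.58% of the counts of the 10 receptor genes in library 2 and 6.97% in library 1.

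The other genes of the Ly49 cluster were also low. Of 9 further Klra genes and pseudogenes, 0 reached 1 TPM in both libraries and 3 had the 10 counts needed for the test. The pseudogene Klra13-ps was the one that passed, with 25 counts and 0.77 TPM in library 2 against 8 counts and 0.28 TPM in library 1 (log2 ratio 1.42). In library 2 its TPM was above that of each of the 4 Ly49 receptor genes described here. Its counting interval there, 0.498 to 1.14 TPM, overlapped those of Klra7, Klra8 and Klra4, so that order is not resolved. In library 1 it stood above none of the 4. Klra17 had 10 counts in library 2 and 20 in library 1, and Klra2 had 18 and 20. Their median log2 ratio was -0.15. Over all 13 Ly49 genes the sum was 2.92 TPM in library 2 and 2.45 TPM in library 1.

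Sequence shared between paralogs limits some of these values. Every 76-base word of each gene's transcripts was compared with all other genes, for transcripts whose deposited length closely matched that in GENCODE M21. Ncr1, Klrk1, Klrd1 and Klre1 shared 0% of their words. For Klrk1 this leaves out Klrk1-202, of 3179 bases as deposited and 1019 in M21. That form received 134 of the 164 Klrk1 counts in library 2 and 46.5 of 100 in library 1. Klra9-202, with 0 counts in both libraries, was left out too. Klrc1 shared 24.5%, mostly with its neighbour Klrc2, which encodes the activating NKG2C. Klra8 shared 19.3%, mostly with the pseudogene Klra14-ps. Klra9 shared 11.5%, Klra7 5.56%, all of it with the pseudogene Klra13-ps, and Klra4 0.256%. Klrb1c shared 13.1%, of which the overlapping same-strand gene Gm44511, present in the newer annotation alone, took the most. The deposited posterior SD of the count was 0 in both libraries for 9 of the 10 genes, and for Klrc1 it was 1 in library 2 and 0.91 in library 1.

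The authors' tables divide each gene among annotated transcripts, and 7 of the 10 receptor genes have several. These shares are estimates from few reads and are described without a test. For Ncr1 the transcript Ncr1-201 held 93.2% of the gene's TPM in library 2 and 66.8% in library 1. The remainder went to Ncr1-202, with 23.9 estimated counts in library 2 and 92.3 in library 1, a form whose first exon covers the 77-base first intron of Ncr1-201 in GENCODE M21. The total of Ncr1 thus varied little while its division between these forms moved by 26.4 percentage points.

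For Klrb1c the main transcript Klrb1c-201 held 48.4% of the gene's TPM in library 2 and 71.9% in library 1. The short form Klrb1c-204, of 614 bases, held 22.1% in library 2 and was listed at 0 in library 1. It received 37.2 of the 687 counts, and since TPM divides by length, these few reads carried a large share of the level. The fold between libraries was 2.87 in TPM and 2.50 in scaled counts.

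Klrc1 moved the other way. Klrc1-201, of 1984 bases, received 47.2 counts and 19.1% of the gene's TPM in library 2 and was listed at 0 in library 1. The shorter Klrc1-202, of 822 bases, held 57.3% in library 2 and 84.3% in library 1. A larger part of the library 2 reads was therefore divided by a greater length.

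Among the remaining genes, Klrd1-202 held 45.7% of the TPM of Klrd1 in library 2 and 84.8% in library 1, with Klrd1-201 at 36.3% in library 2 and listed at 0 in library 1. The retained-intron form Klrd1-204 held 17.9% in library 2 and 15.2% in library 1. For Klrk1 the form Klrk1-202 led in library 2 with 57.1%, against 33.9% in library 1. In library 1 Klrk1-205 took 24.95%, and it was listed at 0 in library 2. For Klra7, on 20 and 17 counts in all, Klra7-203 was listed at 0 in library 2 and held 57.3% in library 1, the widest move of the 10 genes. Klra7-202 held 57.4% in library 2 and 4.05% in library 1.

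**Figure D3:**
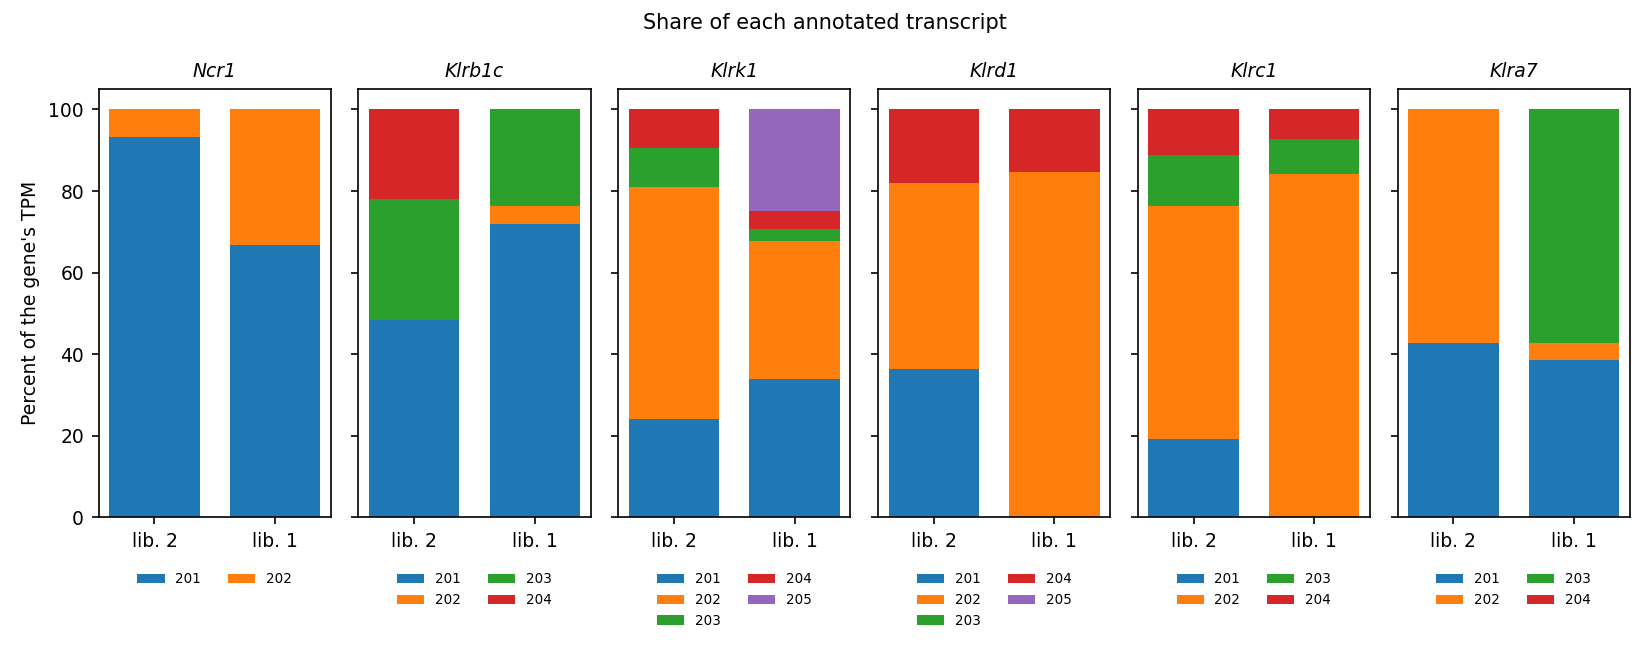
Percent of the gene's TPM held by each annotated transcript, as stacked bars for library 2 (left) and library 1 (right), for the 6 receptor genes whose TPM was divided among several transcripts. Ncr1-201 holds 93.2% in library 2 and 66.8% in library 1, and Klrb1c-204 and Klrc1-201 appear in library 2 alone.

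Promoter sequence of the receptor genes was also described, and its part in the ratios between the libraries was not tested. RefSeq promoter windows on GRCm38.p6, from 250 bases before to 50 bases after the start, were matched for 9 of the 10 genes, all but Klrd1. Motifs of 3 factor families used by NK cells were searched on both strands: TGTGGT for RUNX factors, GGAAGT for ETS factors and AGGTGT for T-box factors. Some genes have more than 1 window, and the 9 genes had 13. TGTGGT was found in 6 of the 13 windows, against 16.8% of all 32851 promoter windows. These belonged to 5 genes, Ncr1, Klrb1c, Klrk1, Klrc1 and Klre1, and none to the 4 Ly49 genes. The Ncr1 windows, starting at 4337465 and 4337474, overlap and hold the same letters, so the windows are not independent of each other. GGAAGT was found in 1 of the 13, that of Klrb1c, against 23.8% of all windows, and AGGTGT in 0, against 13.7%. The windows of the leading genes by TPM are shown 5′ to 3′ on the gene's strand, with the RUNX letters or their reverse complement, and for Klrb1c also the ETS letters, in capitals. A match of letters is not a bound site.
Klrb1c, chr6:128788592-128788891, minus strand: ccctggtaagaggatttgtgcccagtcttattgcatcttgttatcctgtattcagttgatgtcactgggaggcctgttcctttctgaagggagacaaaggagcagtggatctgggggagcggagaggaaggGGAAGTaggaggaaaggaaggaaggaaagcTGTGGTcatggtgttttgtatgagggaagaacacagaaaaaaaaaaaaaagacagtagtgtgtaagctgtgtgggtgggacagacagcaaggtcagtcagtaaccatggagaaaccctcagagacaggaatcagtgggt
Ncr1, chr7:4337465-4337764, plus strand: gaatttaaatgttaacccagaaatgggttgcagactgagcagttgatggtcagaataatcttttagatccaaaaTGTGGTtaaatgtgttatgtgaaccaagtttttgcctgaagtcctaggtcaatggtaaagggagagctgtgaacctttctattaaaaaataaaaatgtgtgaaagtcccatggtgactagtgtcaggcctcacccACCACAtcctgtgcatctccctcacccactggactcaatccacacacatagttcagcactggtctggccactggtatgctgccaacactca

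In the Klrb1c window the RUNX letters began 89 bases before the start and the ETS letters 119 bases before it. In the Ncr1 window the RUNX letters occurred on both strands, 176 and 41 bases before the start.

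The adaptors through which the activating receptors signal were far more abundant than the receptors, and their ratios were mixed. Of 12 adaptor and signalling genes tested, 3 were higher in library 2, 7 were lower and 2 did not pass, with a median log2 ratio of -0.080. Hcst, which encodes DAP10, was at 144 TPM in library 2 against 230 TPM in library 1, and was lower in library 2 (log2 ratio -0.47). Tyrobp, which encodes DAP12, was at 472 TPM in library 2 against 599 TPM in library 1 (log2 ratio -0.17, lower). Fcer1g, the Fc receptor gamma chain used by NKp46 and NK1.1, was at 276 TPM in library 2 against 214 TPM in library 1 and was higher (log2 ratio 0.54). Cd247, which encodes CD3 zeta, was at 37.0 TPM in library 2 against 46.8 TPM in library 1 and did not pass.

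Hcst stood at 96.6 times the TPM of Klrk1 in library 2 and at 240 times in library 1. Fcer1g stood at 54.2 times that of Ncr1 in library 2 and at 47.5 times in library 1. These adaptors are also made by myeloid cells, T cells or mast cells, so whole-spleen levels do not describe NK cells alone.

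The list of ligand genes, which also held B2m and Clec2d, was split. Of 6 genes that could be tested, 2 were higher in library 2, 3 were lower and 1 did not pass, and the median log2 ratio was 0.013. The higher genes were B2m (log2 ratio 0.068), the light chain of MHC class I, and Clec2d (log2 ratio 0.12). The product of Clec2d is a ligand of Klrb1b, which is not among the receptor genes described here. The other tested genes, given next, were lower or did not pass. H2-T23, which encodes the Qa-1 ligand of CD94 and NKG2A, was at 310 TPM in library 2 against 345 TPM in library 1. H2-D1 and H2-K1, classical MHC class I genes seen by Ly49 receptors, were at 1033 and 1692 TPM in library 2 and at 1341 and 2074 TPM in library 1. Each of these 3 was lower in library 2, by log2 ratios of -0.041 to -0.26. The NKG2D ligand genes were all under 1 TPM. Ulbp1, which encodes MULT1, had 75 counts and 0.88 TPM in library 2 against 63 counts and 0.81 TPM in library 1 and did not pass. The Raet1 and H60 genes were near the limit of detection. Raet1e had 7 counts in library 2 and 0 in library 1, H60b had 1 and 3, Raet1d had 1 in each, and H60c had 0 in both.

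Other receptors of the NK gene complex did not share 1 direction. Of 8 tested, 4 were higher in library 2, 2 were lower and 2 did not pass, with a median log2 ratio of 0.29. Klrb1b, the inhibitory NKR-P1 receptor for the product of Clec2d, had 117 counts in library 2 and 42 in library 1 (log2 ratio 1.42), close to the ratio of Klrb1c. Klrb1a, another NKR-P1 gene of the same cluster, had 57 counts in library 2 and 106 in library 1 and was lower (log2 ratio -0.89). Klrb1f was higher, with 119 counts in library 2 and 74 in library 1.

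The NKG2 genes next to Klrc1 also diverged. Klrc2 had 64.1 estimated counts in library 2 and 40.3 in library 1, which passed as higher (exact binomial test, Benjamini-Hochberg adjusted p = 0.048). In TPM Klrc2 ran the other way, at 0.69 in library 2 against 0.80 in library 1. Klrc3, which encodes NKG2E, had 14.3 estimated counts in library 2 and 33.7 in library 1 and was lower (log2 ratio -1.19). These counts were divided by the authors' estimation among genes that share sequence with Klrc1, and are uncertain. The deposited posterior SD was 2.34 in library 2 and 3.27 in library 1 for Klrc2, and 2.13 and 3.08 for Klrc3. Klrg1, an inhibitory receptor of mature NK and effector T cells, had 62 counts in library 2 and 64 in library 1.

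Genes of NK effector function and lineage did not follow the receptors. Of 15 tested, 3 were higher in library 2, 5 were lower and 7 did not pass, with a median log2 ratio of -0.20. Eomes, a transcription factor that NK cells need to mature, was at 5.33 TPM in library 2 against 9.28 TPM in library 1 (log2 ratio -0.54). Tbx21, which encodes the related T-bet, was at 9.81 TPM in library 2 against 13.0 TPM in library 1 (log2 ratio -0.28), and S1pr5, a receptor for NK cell exit from tissue, was at 10.9 and 19.2 TPM (log2 ratio -0.69). These 3 were lower in library 2. Gzma, a granule protease, was at 8.80 TPM in library 2 against 6.03 TPM in library 1 (log2 ratio 0.69), and Itga2, which encodes the NK marker CD49b, was at 0.81 and 0.43 TPM (log2 ratio 1.02). Both were higher, as was Cd244a. Prf1 and Nkg7, which serve killing by granules, did not pass.

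**Figure D4:**
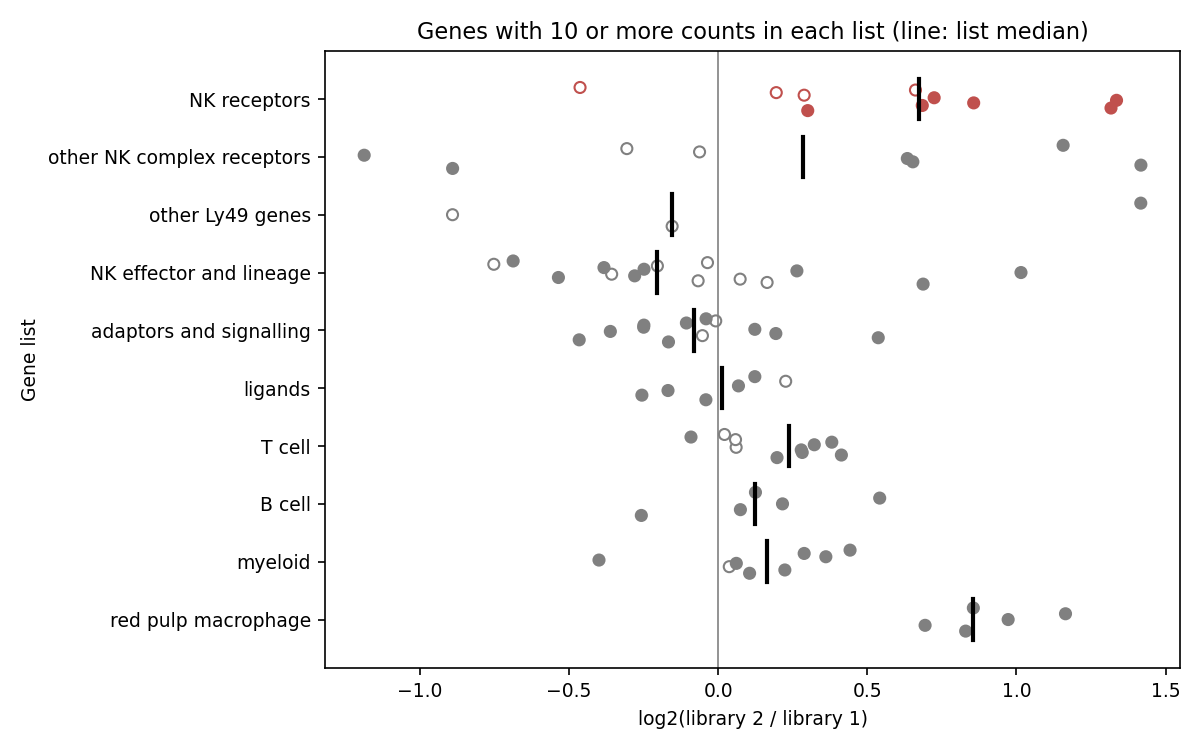
Log2 ratio of library 2 over library 1 for genes with 10 or more counts in 10 gene lists; filled points passed the exact binomial test, open points did not, and black lines are list medians. The receptor genes have a median of 0.67, the NK effector and lineage genes -0.20 and the adaptor and signalling genes -0.080.

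The ratio between the libraries moved with GC content, and the receptor genes are poor in GC. Their transcripts held between 37.2% and 46.9% GC, and all 10 lay below the median of 51.3% of the genes tested. Among all genes at 42% GC or less, the median log2 ratio was 0.268, with 36.4% of genes higher in library 2 and 7.85% lower. The 6 receptor genes among them were not the 6 that passed as higher. They were the 4 Ly49 genes, which did not pass, and Klrd1 and Klre1, which did. Klrb1c was the richest in GC of the receptor genes, at 46.9%. Among genes above 54% GC the median was -0.126, with 13.8% higher and 43.2% lower. The adaptor and signalling genes had a median GC content of 54.9%, and the NK effector and lineage genes of 53.1%.

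After this trend and that with transcript length were removed, an alternative chosen after seeing the data, 3 receptor genes passed as higher and 0 as lower, where 22.2% of all genes were higher. Klrb1c kept a log2 ratio of 1.19, Klrc1 of 1.14 and Klrk1 of 0.49. The adjusted p-values from the exact binomial test with Benjamini-Hochberg adjustment were 1.0e-32 for Klrb1c, 1.1e-05 for Klrc1 and 0.0142 for Klrk1. The Klrk1 value is less certain. GC content came from GENCODE M21 sequences, where Klrk1-202 has 1019 bases, against 3179 as deposited. Ncr1 was then at 0.12, Klrd1 at 0.59 and Klre1 at 0.47, with exact binomial test adjusted p-values of 0.46, 0.085 and 0.103, and did not pass. Without the trend the median was 0.44 over the receptor genes and -0.017 over the adaptor and signalling genes. Over the NK effector and lineage genes it was -0.12.

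Calls outside the 10 receptor genes changed as well once the trend was removed. Of the other receptors of the complex, 2 were then higher and 2 lower, and Klrb1f and Klrc2 no longer passed (exact binomial test, Benjamini-Hochberg adjusted p = 0.1001 and 0.23). Of the adaptor and signalling genes, 3 were higher and 5 lower, and of the ligand genes 0 were higher and 3 lower. H2-T23 was at a log2 ratio of 0.0084 and did not pass, and B2m, the light chain of MHC class I, was at -0.19, where it had been at 0.068 with the trend. Of the NK effector and lineage genes, 3 were higher and 4 lower. Tbx21 was at -0.070 and Cd244a at 0.18, and neither passed (exact binomial test, Benjamini-Hochberg adjusted p = 0.33 and 0.063), while Nkg7 passed as higher at 0.089.

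**Figure D5:**
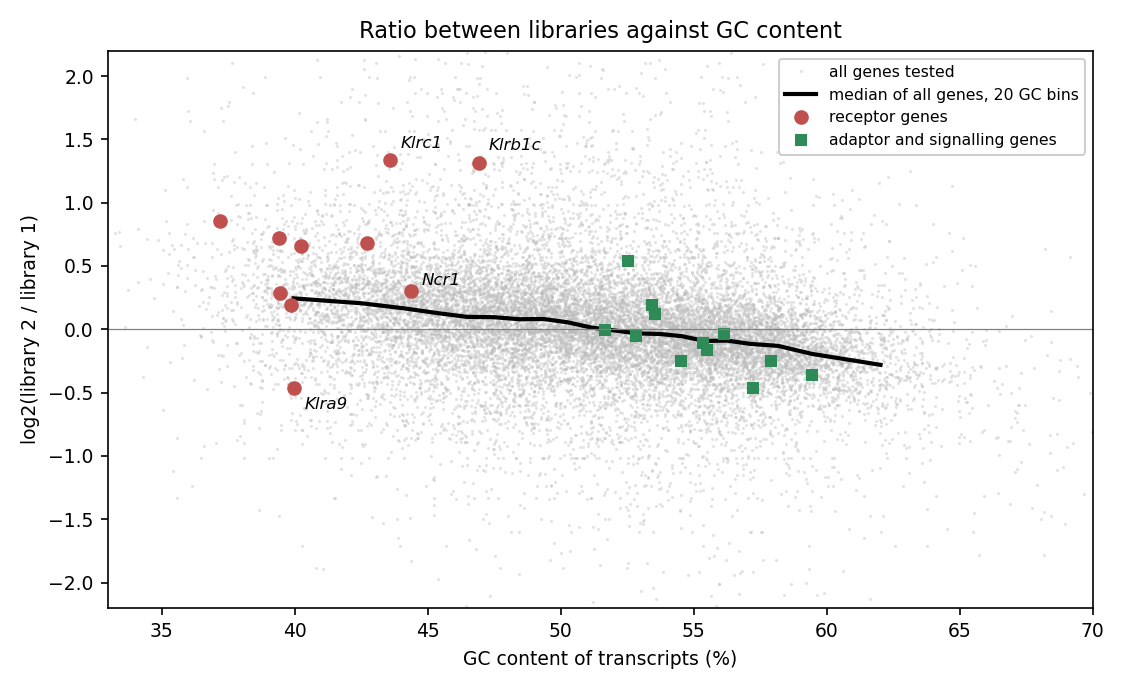
Log2 ratio of library 2 over library 1 against the GC content of each gene's transcripts, in percent, for all genes tested (grey), with the running median (black), the 10 receptor genes (red) and the adaptor and signalling genes (green). The receptor genes lie at 37.2% to 46.9% GC, where the median of all genes is above 0, and Klrb1c and Klrc1 lie above it by more than 1 on the log2 scale.

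Markers of other cells of the spleen, only some of which carry any of these receptors, were checked. Of 10 T cell genes, 6 were higher in library 2, 1 was lower and 3 did not pass, with a median log2 ratio of 0.24, and they summed to 460 TPM in library 2 and 467 TPM in library 1. Of 5 genes of type 1 innate lymphoid cells, 3 were higher and 2 lower, summing to 176 TPM in library 2 and 177 TPM in library 1, of which Tmem176b alone gave 160.45 and 162.5 TPM. With the GC and length trend removed, 1 of these 5 was higher and 2 lower, and of the T cell genes 6 were higher and 0 lower. None of these markers was at 0. The red pulp macrophage genes, 5 of 5, and the red cell genes, 5 of 5, were higher in library 2, with median log2 ratios of 0.86 and 0.90, and the macrophage genes summed to 541 TPM in library 2 and 311 TPM in library 1. Of 5 B cell genes, 4 were higher and 1 lower, and of 8 myeloid genes 6 were higher and 1 lower. Of 5 stroma genes, 0 were higher and 4 lower. The part of these cells in the receptor ratios was not tested.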

How the data were processed

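The data are RNA-seq of whole mouse spleen, 2 biological replicates of 1 group. The authors deposited gene and transcript tables on mm10 with GENCODE M4, per the file headers and notes; no source used here names the aligner or the quantification tool. As deposited, expected counts are estimated reads per gene without normalization. The deposited TPM and FPKM values are length-corrected abundances scaled within each library, spike-ins included, so a large class such as globins lowers the TPM of other genes. The deposited transcript tables give each transcript's percent of its gene's TPM. The deposited posterior SD of the count measures uncertainty from shared reads. A contig list and a junction list on mm9 were not used here.

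Symbols, positions and transcript sequences came from GENCODE M21 on GRCm38, matched by unversioned identifier (98.0% of 43346 genes). Spike-ins (1.24% of counts in library 2 and 0.670% in library 1) were left out. Expected counts were rounded for the test. Library sizes were scaled with TMM in edgeR 4.0.16 (R 4.3.3). With 1 group of 2 libraries no condition can be tested, so counts were compared by an exact two-sided binomial test in scipy 1.17.1, for genes with 10 or more counts, adjusted by Benjamini-Hochberg over all of them, threshold 0.05. Log2 ratios used a prior count of 2, and folds none. Counting intervals are exact, at 95%, and cover counting error only. The labels give each library its own tissue sample but do not say whether these came from separate mice, so the spread between them may be technical. The test was run on counts simulated with counting error alone. That simulation held no spread between samples and no GC trend, so it does not show how the test behaves with them. GC and length trends were removed as medians of log2 ratios in 20 bins of each. Alternatives were DESeq2 1.42.0 size factors, plain totals, totals without red cell and pancreas genes, transcript-table sums, other filters, prior counts and units, and each library alone. All 10 receptor genes are named; genes of other lists are named where a statement turns on them. The receptor genes and the lists were chosen with earlier results of these data known.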

Additional observations from a re-analysis of the deposited data

How the results depend on the processing

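The number of receptor genes higher in library 2 was 6, as in the main result, with DESeq2 size factors, plain totals, totals without red cell and pancreas genes, transcript-table sums, no filter or a filter of 50 counts. It was 3 with the GC and length trend removed and 2 when more than 2-fold was also required, both chosen after seeing the data. The median log2 ratio was 0.25 on log2(TPM + 1), 0.52 on log2(TPM + 0.1) and 0.44 without the GC and length trend. With the trend removed, Klra7 reversed to -0.082, and Ncr1, Klrd1 and Klre1 no longer passed. On the TPM scales Klrc1 was at 0.53 and 0.75. Of 96 alternative values for single genes, 90 kept direction and call, or moved by less than their error. Many of these had no room to move. Transcript-table sums repeated the gene counts, and the count filters change adjusted p-values but not ratios. The other prior count and the TPM scales gave ratios without a call. The 90 is therefore not a measure of how firm the values are. At a limit of 2 TPM, 2 genes were detected in both libraries. Counted in 1 library alone, 6 genes reached 1 TPM in library 2 and 5 in library 1. The summed TPM was 22.1 in library 2 alone and 13.1 in library 1 alone, and its mean was 26.9 with TPM rescaled without red cell and pancreas genes (35.6 in library 2 and 18.2 in library 1). No paired analysis was possible because the series has 1 group. Depth limits the Ly49 genes most, at 9 to 22 counts per library.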
